A study of Homo sapiens with 60 samples.

Results

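SKBR3 cells were given rapamycin or its vehicle, and their RNA was measured on 10 Affymetrix U133 Plus expression arrays, 5 with rapamycin at 20 nM and 5 with DMSO alone. These 10 arrays were taken, by their labels, from the 60 of a series that also holds the breast epithelial lines HB4a and C5.2 and the drug doxorubicin at 30 nM. SKBR3 is a human mammary adenocarcinoma line that overexpresses HER-2, the receptor encoded by ERBB2. HB4a comes from normal breast epithelium, and C5.2 is a derivative of HB4a that carries an introduced ERBB2 cDNA. Each of the 12 groups (3 lines, each with rapamycin, doxorubicin, both drugs or vehicle) has 5 arrays from experiments numbered 1, 2, 3, 4 and 6. The labels name independent experiments and give neither a treatment time nor an array batch.

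Rapamycin binds the small protein FKBP12 (encoded by FKBP1A), and the pair blocks the kinase complex mTORC1. In growing cells mTORC1 is switched on by growth factors, through AKT and RHEB, and by amino acids, through the Rag GTPases on the lysosome. Active mTORC1 raises protein, lipid and nucleotide synthesis through S6 kinases, 4E-BP proteins and transcription factors such as SREBP, HIF1A and ATF4, and it holds back autophagy and lysosome formation. It also damps signalling from ERBB and insulin receptors to AKT and ERK, a feedback that rapamycin is known to release in HER-2-driven breast cancer cells.

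All values are log2 RMA values as the authors deposited them, 1 probe set per gene, so 1 unit is a 2-fold difference in signal. Differences are rapamycin minus vehicle ± the standard error of a limma fit that pairs arrays of the same experiment (n = 5 pairs). A gene is called where its 2-sided p, Benjamini-Hochberg adjusted over all 5570 genes past a filter (log2 above 5 on at least 5 of the 10 arrays), is under 0.05, and rose and fell are used of called genes alone. For single genes, array values are given in the order of experiments 1, 2, 3, 4 and 6. The number of arrays limits the precision, and in bulk RNA fewer cells of a kind and less RNA per cell cannot be told apart.

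Rapamycin changed 2315 of the 5570 genes (41.6%), 982 upward (17.6%) and 1333 downward (23.9%), and 1920 of the calls had the same sign in all 5 experiments. After quantile normalization the balance turned, with 1198 genes higher and 1128 lower. In 45 tested genes all arrays of 1 group lay at or under the filter's log2 value of 5, so that each passed only through the group where it is high, and 44 of them were called. Among the genes named below these were CCNO, HEG1, GPNMB, PFKFB3, PBK, SPC25, HMMR, SHCBP1, MKI67, BUB1, RAD51AP1, ACAT2, PHGDH, CDC45 and GINS2. Changes were mostly small: 99 called genes differed by 2-fold or more, 20 higher and 79 lower with rapamycin. The median over all genes tested was -0.03. Without the pairing the same 10 arrays gave 316 genes higher and 473 lower, and 42 of the 144 genes named here as called lost their call, among them ERBB2, JUN, MAFF, DUSP4, CCNG2, EIF4E, NPM1, SCD and SPDEF. In 258 genes (4.63%) every rapamycin array lay above every vehicle array, and in 448 genes (8.04%) every rapamycin array lay below.

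Vehicle array 3 carries RNA that the other SKBR3 arrays lack. Its 9 largest excesses over the mean of the other 4 vehicle arrays were GPX1, NNMT, LGALS3, CDH1, FN1, TPM2, IGFBP3, AXL and GDF15, from 3.62 to 5.65 log2 units, all of them clearly present in HB4a and C5.2. None of the 9 passed the filter, and how far this RNA adds to tested genes was not tested. Without experiment 3 there were 748 genes higher (13.4%) and 1193 lower (21.4%), 736 and 1140 of them called the same way with it, and all 99 calls of 2-fold or more remained. Vehicle array 1 was the least like its group (r = 0.9581 with the mean of the other vehicle arrays), and some list counts are given without experiment 1 as well. The summed signal of 19 luminal epithelial markers was 17200 to 20600 on the rapamycin arrays and 15900 to 19100 on the vehicle arrays. Of these markers E-cadherin CDH1 lay near 0 outside vehicle array 3. No leukocyte or endothelial marker passed the filter.

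**Figure D1:**
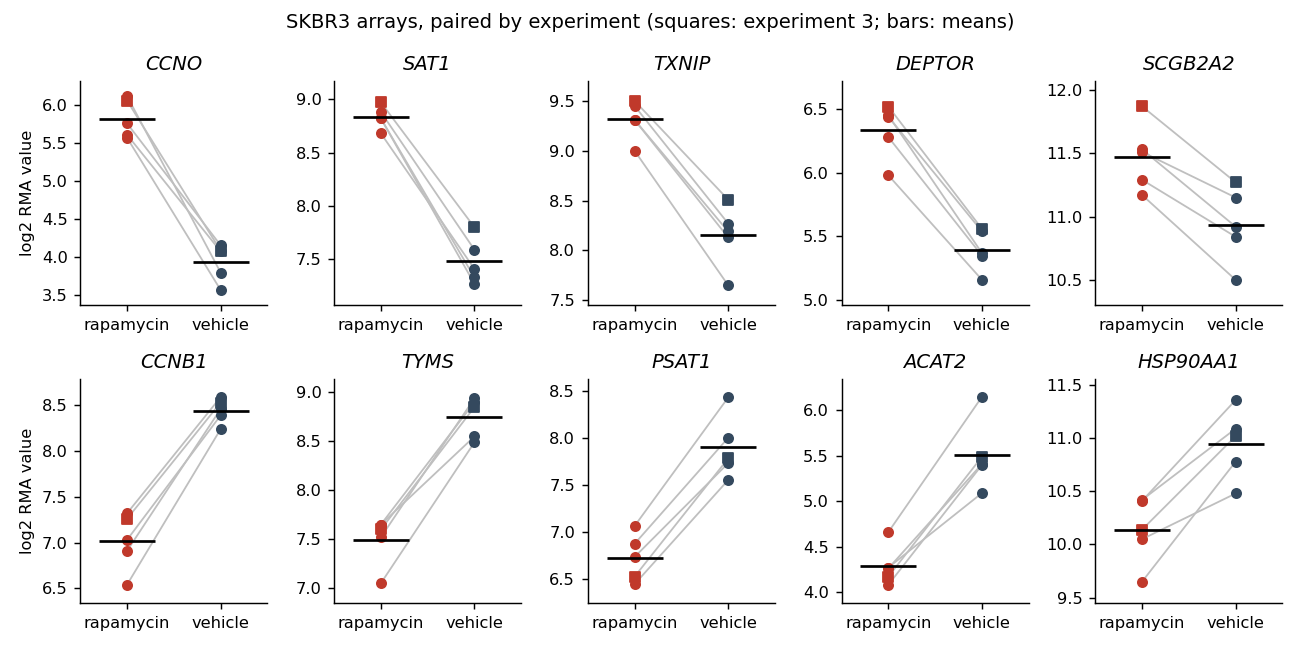
Log2 RMA values of 10 genes on the 10 SKBR3 arrays, rapamycin on the left of each panel and vehicle on the right, with lines joining arrays of the same experiment, squares for experiment 3 and bars for group means. In every panel each line runs the same way, and the groups overlap only for SCGB2A2.

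Genes of mitosis had the lowest median of the lists examined. Of 38 genes of G2 and mitosis, 28 passed the filter and all 28 were lower with rapamycin, against 23.9% of all genes, with a median of -1.35. In 24 of the 28 every rapamycin array lay below every vehicle array, against 8.04% of all genes. Since 5 of the 28 passed only through the vehicle arrays, the list was also taken with no filter at all: then 37 of its 38 genes were lower (9.2% of all 19775 genes were), the exception being the phosphatase CDC25B. The median was -1.33 without experiment 3 and -1.30 without experiment 1, with all 28 calls kept in both. The 10 members below the filter were AURKB, CDC25C, CENPE, DLGAP5, KIF11, KIF23, NDC80, NUF2, PLK1 and TTK.

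CCNB1, cyclin B1, the partner of CDK1 at entry into mitosis, read 6.91, 6.54, 7.26, 7.32 and 7.03 on the rapamycin arrays, against 8.46, 8.24, 8.53, 8.59 and 8.39 on the vehicle arrays. The groups were far apart, and cyclin B1 was 2.69-fold lower with rapamycin (-1.43 ± 0.08, adjusted p = 2.5e-10). CDK1, the mitotic kinase itself, read 6.94, 6.16, 6.77, 7.29 and 5.83 with rapamycin, against 8.79, 7.68, 8.20, 8.35 and 7.68 with vehicle. Every pair fell and the groups did not overlap, although the level differed between experiments and was lowest in experiments 2 and 6 (-1.54 ± 0.10, adjusted p = 6.34e-10). CCNA2, cyclin A2, fell by 1.59 (-1.59 ± 0.10, adjusted p = 3e-10).

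HMMR, a spindle-binding hyaluronan receptor, read 4.48, 3.77, 4.28, 4.82 and 3.48 with rapamycin, against 6.70, 5.37, 5.95, 6.02 and 5.51 with vehicle. All 5 rapamycin arrays lay under the filter's log2 value of 5 and all vehicle arrays above it, with a 3.35-fold lower level (-1.74 ± 0.13, adjusted p = 1.85e-09). MKI67, the proliferation antigen Ki-67, read 4.12, 3.68, 4.49, 4.74 and 4.43 with rapamycin, against 5.25, 5.40, 6.32, 6.15 and 6.09 with vehicle. Every rapamycin array lay below every vehicle array (-1.55 ± 0.11, adjusted p = 1.88e-09).

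The other large falls were of the same kind. Among the 15 largest were the mitotic kinases PBK (-1.81 ± 0.13), NEK2 (-1.54 ± 0.10) and BUB1 (-1.51 ± 0.10), the kinetochore subunit SPC25 (-1.75 ± 0.11) and the spindle-pole protein ASPM (-1.62 ± 0.11). With them stood anillin ANLN, which organises the cleavage furrow (-1.55 ± 0.09), the mid-body protein SHCBP1 (-1.61 ± 0.12), survivin BIRC5 of the chromosomal passenger complex (-1.47 ± 0.09), the depolymerising kinesin KIF2C (-1.45 ± 0.08) and the recombination factor RAD51AP1 (-1.44 ± 0.12). Topoisomerase TOP2A, the target of doxorubicin, read 7.02, 6.30, 6.81, 7.75 and 7.07 with rapamycin, against 8.67, 7.59, 8.54, 8.68 and 8.49 with vehicle. The highest rapamycin array (experiment 4) lay above the lowest vehicle array (experiment 2), but TOP2A was lower in all 5 pairs (-1.41 ± 0.10, adjusted p = 1.24e-09).

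Genes on a list of DNA replication genes and E2F targets (the replication list) fell too, by less. Of 38 members 29 passed the filter, and 23 of them fell, with none higher and a median of -0.60 (23 without experiment 3, 24 without experiment 1). Since 2 of the 29 passed only through the vehicle arrays, the no-filter count is given too: 30 of 38 were lower and none higher, with a median of -0.61. The largest falls were UHRF1, which carries DNA methylation through replication (-1.27 ± 0.09), the helicase activators CDC45 (-1.18 ± 0.10), GINS1 (-1.09 ± 0.08) and GINS2 (-1.0 ± 0.11), and PCNA, the polymerase clamp (-0.97 ± 0.07). Of the 6 tested MCM helicase subunits 5 fell, MCM5 being the one that did not pass (-0.15). Of 22 pentose phosphate and nucleotide synthesis genes 8 fell and 3 rose, with a median of -0.11 (5 and 2 without the pairing). TYMS, thymidylate synthase, read 7.52, 7.05, 7.60, 7.65 and 7.65 with rapamycin, against 8.94, 8.49, 8.85, 8.90 and 8.55 with vehicle, a 2.38-fold lower level (-1.25 ± 0.08, adjusted p = 6.34e-10). The ribonucleotide reductase subunits RRM2 (-1.15 ± 0.07) and RRM1 (-0.73 ± 0.10) and the first enzyme of purine synthesis, PPAT (-0.69 ± 0.10), fell as well, whereas IMPDH2 of guanine nucleotide synthesis (0.50 ± 0.05), PGLS of the pentose phosphate pathway (0.67 ± 0.10) and ADSL of purine synthesis (0.29 ± 0.08) rose.

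Among cell-cycle regulators proper 6 of 12 tested fell and 2 rose (5 and 0 without the pairing). CDK2 fell (-1.0 ± 0.11), as did SKP2, which marks the inhibitor p27 for destruction (-0.68 ± 0.08), cyclin D3 CCND3 (-0.50 ± 0.11) and CCNA2 above. Cyclin D1 CCND1 read 6.43, 6.88, 7.26, 7.37 and 6.89 with rapamycin, against 6.58, 6.60, 7.20, 7.29 and 7.03 with vehicle, overlapping throughout (0.03 ± 0.09, adjusted p = 0.839). CCNG2, a cyclin tied to arrest, rose (0.75 ± 0.09). CDKN1A, the inhibitor p21, lay under the filter, at 3.71 to 4.59 with rapamycin and 3.99 to 4.66 with vehicle outside vehicle array 3, which read 6.59. Of the 5 p53 targets tested, CCNG1 rose and MDM2 fell, and without experiment 3 neither was called.

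RefSeq promoter windows (GRCh38.p14, 250 bases before to 50 after the gene start) were searched on both strands. For the mitosis and replication lists every member with a window was taken, called or not. The letters TTTGAA, those of the cell-cycle homology region bound by the DREAM complex, lay in 21 of the 31 windows found for the mitosis list (67.7%), in 0 of 35 for the replication list, in 8.92% of those of all genes tested and in 15.4% of all 27305 windows. The E2F letters TTTCCCGC or TTTGGCGC lay in 18 of 35 replication windows (51.4%), 6.45% of mitosis windows, 4.09% of those of all genes tested and 2.31% of all windows. The CCAAT letters lay in 22 of 31 mitosis windows and 21 of 35 replication windows, against 38.5% of those of all genes tested. A match describes letters and shows no binding. The replication list was drawn up to hold E2F targets, and the mitosis list, like all lists here, was chosen with earlier results known. Neither list's share of letters can therefore show what the falling genes have in common. Among windows of all genes called lower, TTTGAA lay in 13.9% and the E2F letters in 6.73%, against 6.44% and 2.11% for genes called higher. The last 100 bases before the start are shown for 3 mitosis genes among the largest falls, with TTTGAA or its complement in capitals, and for 3 replication genes, with the E2F letters or their complement in capitals, each 5′ to 3′ along the gene.
HMMR: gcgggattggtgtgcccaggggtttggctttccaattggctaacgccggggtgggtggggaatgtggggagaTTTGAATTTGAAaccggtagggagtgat
MKI67: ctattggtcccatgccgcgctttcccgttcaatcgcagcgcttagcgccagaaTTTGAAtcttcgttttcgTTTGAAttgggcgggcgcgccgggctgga
ANLN: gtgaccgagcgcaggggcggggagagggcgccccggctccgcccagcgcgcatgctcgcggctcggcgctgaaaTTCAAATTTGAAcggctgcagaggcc
UHRF1: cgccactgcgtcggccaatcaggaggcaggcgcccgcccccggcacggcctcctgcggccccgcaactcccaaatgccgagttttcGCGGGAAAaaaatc
GINS2: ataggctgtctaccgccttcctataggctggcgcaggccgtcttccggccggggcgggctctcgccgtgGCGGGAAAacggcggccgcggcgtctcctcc
PCNA: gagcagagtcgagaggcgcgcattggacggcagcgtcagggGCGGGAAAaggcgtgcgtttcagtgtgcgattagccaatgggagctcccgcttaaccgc
Only genes that hold the letters in these bases were shown. The stretches are therefore examples and do not show how common the letters are among the falling genes. In these stretches the mitosis motif starts 20 to 47 bases before the gene start, with 2 copies in each, and the E2F letters start 14 to 59 bases before it. HMMR lies at chr5:163460532-163460631 (plus strand), MKI67 at chr10:128126424-128126523 (minus strand), ANLN at chr7:36389762-36389861 (plus strand), UHRF1 at chr19:4909401-4909500 (plus strand), GINS2 at chr16:85688955-85689054 (minus strand) and PCNA at chr20:5126623-5126722 (minus strand), all upstream of the first exon. These 3 mitosis genes fell by 1.55 to 1.74 and the 3 replication genes by 0.97 to 1.27 on the log2 scale.

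The genes that rose most were a mixed group. CCNO, a cyclin-like protein best known from ciliated cells, read 5.57, 5.76, 6.06, 6.12 and 5.61 with rapamycin, against 3.56, 4.15, 4.08, 3.79 and 4.07 with vehicle. It was 3.72-fold higher, the largest rise (1.90 ± 0.12, adjusted p = 3.27e-10). SAT1, the enzyme that acetylates polyamines for export, read 8.82, 8.82, 8.97, 8.88 and 8.68 with rapamycin, against 7.33, 7.27, 7.80, 7.59 and 7.41 with vehicle. No rapamycin array came within a unit of the mean of its vehicle group (1.36 ± 0.08, adjusted p = 2.45e-10). In the same pathway AMD1 and ODC1, which build polyamines, fell (-1.01 ± 0.10 and -0.38 ± 0.07), and 4 of the 8 tested polyamine genes fell in all (2 without the pairing, and 2 without experiment 1). Other leading rises were the membrane protein EMP1 (1.34 ± 0.08), the antisense RNA gene EPB41L4A-AS1 (1.33 ± 0.08), LETMD1 (1.25 ± 0.08), the endothelial-junction protein HEG1 (1.19 ± 0.13), the adhesion scaffold NEDD9 (1.11 ± 0.09), the zinc finger gene ZNF581 (1.11 ± 0.09), the ribosome maturation nuclease NOB1 (1.15 ± 0.09) and endothelin EDN1 (1.08 ± 0.09).

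FOXO targets rose. FOXO factors are held out of the nucleus by AKT, and 11 of their 15 tested targets were higher and none lower, against 17.6% of all genes (10 without experiment 3, 6 without the pairing), with a median of 0.50. TXNIP, an arrestin-like brake on glucose uptake that also answers to MondoA, read 9.31, 9.45, 9.50, 9.31 and 9.0 with rapamycin, against 8.19, 8.27, 8.51, 8.13 and 7.65 with vehicle. The groups did not overlap and TXNIP was 2.24-fold higher (1.17 ± 0.07, adjusted p = 2.6e-10). FBXO32, the ubiquitin ligase atrogin-1, read 6.18, 6.69, 6.95, 6.52 and 6.66 with rapamycin, against 5.09, 5.69, 5.34, 5.14 and 5.19 with vehicle (1.31 ± 0.10, adjusted p = 4.44e-09). CCNG2 above and the cofactor CITED2 (0.61 ± 0.09) also rose. The growth arrest gene GADD45A (-0.03) and the inhibitor CDKN1B (0.03) gave no call.

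Of 12 tested receptors, adaptors and AKT pathway genes 4 rose and 1 fell (2 and 0 without the pairing). ERBB3, the kinase-poor partner of HER-2, read 8.56, 8.84, 8.96, 8.86 and 8.86 with rapamycin, against 8.13, 8.33, 8.42, 8.55 and 8.47 with vehicle. The groups lay just apart (0.43 ± 0.07, adjusted p = 4.48e-05). ERBB2 itself read 11.39, 11.74, 11.87, 11.70 and 11.74 with rapamycin, against 10.87, 11.72, 11.56, 11.61 and 11.65 with vehicle. Vehicle array 1 was lowest of all and the others overlapped, so the rise was small (0.21 ± 0.05, adjusted p = 0.0053, and 0.358 without the pairing). EGFR gave no call (0.18 ± 0.09, adjusted p = 0.137). GRB7, an adaptor of HER-2 encoded next to it, read 6.72, 7.45, 8.38, 7.94 and 8.08 with rapamycin, against 5.73, 6.71, 6.80, 6.85 and 6.99 with vehicle. GRB7 rose in all 5 pairs (1.10 ± 0.10, adjusted p = 4.51e-08), while experiment 1 was low in both groups. Of the 11 tested genes of 17q12 around ERBB2, 3 rose (ERBB2, GRB7 and PGAP3) and 4 fell (PSMD3, CDK12, MED1 and MIEN1). These shares, 27.3% and 36.4%, stand beside 17.6% and 23.9% of all genes, and on so few genes they say little about the region. CDK12 was not called with the mean of all probe sets (-0.03). Without the pairing GRB7 alone was called, and the MED1 call was lost with any of 4 experiments left out.

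The insulin receptor side was too dim to pass the filter. IRS1, an adaptor of the insulin receptor, read 4.44, 4.92, 4.44, 4.69 and 4.42 with rapamycin, against 3.72, 4.31, 4.0, 4.21 and 3.89 with vehicle. INSR, the insulin receptor, read 4.54, 4.75, 4.54, 4.31 and 4.42 with rapamycin, against 3.87, 3.74, 4.13, 3.53 and 3.86 with vehicle, and IGF1R, the receptor of insulin-like growth factor 1, read 4.22, 4.70, 4.51, 4.89 and 4.52 with rapamycin, against 3.31, 3.73, 4.17, 4.13 and 3.89 with vehicle. In each of these 3 genes every rapamycin array lay above every vehicle array, and a fit with no filter called all 3 higher (0.55 ± 0.10, 0.68 ± 0.11 and 0.72 ± 0.11). IRS2 lay near background, below 2 on every array but vehicle array 3.

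ERK feedback and immediate-early genes were higher as well: 8 of 14 tested rose, none fell, and the median was 0.35 (9 without experiment 3). Without the pairing 1 remained. MAFF, a small leucine zipper factor, read 7.31, 8.26, 8.33, 7.91 and 8.35 with rapamycin, against 6.42, 7.39, 7.64, 7.03 and 7.75 with vehicle. The experiments differed more than the treatments, so the groups overlapped, but all 5 pairs rose (0.79 ± 0.08, adjusted p = 1.55e-07). JUN (0.63 ± 0.08), the RAS-ERK inhibitor SPRED2 (0.56 ± 0.10) and the ERK phosphatase DUSP4 (0.52 ± 0.08) rose, while EGR1 gave no call (-0.30), with rapamycin array 2 at 8.80 and the others at 6.16 to 6.65, and was called lower in 4 alternatives, without experiment 1 (-0.42), without experiment 2 (-0.44), with arrays centred on their median (-0.29) and with array weights (-0.49). MYC read 8.97, 9.13, 9.47, 9.34 and 9.04 with rapamycin, against 8.46, 9.03, 8.86, 8.83 and 8.57 with vehicle. Only vehicle array 2 reached into the rapamycin range, and MYC rose (0.44 ± 0.07, adjusted p = 9.81e-05), as did its antagonists MXI1 (0.54 ± 0.09) and MNT (0.45 ± 0.10). Among YAP targets 7 of 11 rose (63.6%, against 17.6% of all genes), led by AMOTL2 (0.79 ± 0.10) and the matricellular gene CCN2 (0.61 ± 0.11). Without the pairing 3 rose, and CCN2 was not among them. The count was 5 higher and 1 lower without experiment 1, and 6 of 16 higher with no filter.

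Of the mTOR machinery 21 of 43 genes with a value passed the filter, 4 rose and 6 fell (2 and 3 without the pairing). These shares, 19% and 28.6%, lie near the 17.6% and 23.9% of all genes. DEPTOR, a protein that binds and inhibits mTOR, read 6.44, 6.28, 6.52, 6.45 and 5.98 with rapamycin, against 5.54, 5.35, 5.56, 5.37 and 5.16 with vehicle. The lowest rapamycin array lay above the highest vehicle array (0.94 ± 0.09, adjusted p = 7.9e-08). RRAGD, a Rag GTPase, rose (0.60 ± 0.09). DDIT4, the stress-induced mTORC1 inhibitor REDD1, read 8.54, 8.62, 9.19, 8.77 and 8.77 with rapamycin, against 9.57, 9.42, 9.45, 9.45 and 9.49 with vehicle. DDIT4 was lower on every rapamycin array (-0.70 ± 0.08, adjusted p = 1.37e-06). FKBP5, a chaperone that also binds rapamycin, fell (-0.79 ± 0.10), whereas FKBP1A gave no call (0.09 ± 0.10, adjusted p = 0.477). MTOR, RPTOR, RICTOR and RPS6KB1 lay under the filter, and a fit with no filter called none of them.

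Protein synthesis genes split. EIF4B, a helicase cofactor of cap-dependent translation whose mRNA is itself under mTORC1 translational control, read 9.23, 8.91, 9.18, 9.16 and 9.16 with rapamycin, against 8.50, 8.49, 8.42, 8.48 and 8.56 with vehicle. The groups were far apart (0.64 ± 0.07, adjusted p = 4.09e-07). The elongation factor EEF2, also translated from such an mRNA, rose (0.42 ± 0.05). Cytosolic ribosomal protein genes stayed within -0.02 to 0.28, 4 of 25 rising (RPL3, RPL14, RPS9 and RPL18) and none falling (2 rising without the pairing). The rising share, 16%, lies near the 17.6% of all genes. RPL18 was not called without experiment 3 or 4, with no filter or after quantile normalization. With the mean of all probe sets or with no trend, neither RPL18 nor RPS9 was called. EIF4E, the cap-binding protein, fell (-0.72 ± 0.11), and EIF4EBP1 gave no call (0.11 ± 0.10). Ribosome biogenesis factors went mainly down, 11 of 27 lower and 4 higher, with NOP16 (-0.59 ± 0.07) and the polymerase I factor RRN3 (-0.47 ± 0.10) among the falls and NOB1 and nucleophosmin NPM1 (0.21 ± 0.06) among the rises. Without the pairing 3 were lower and 1 higher. Cytosolic tRNA synthetases had 8 of 17 lower and none higher (4 lower without the pairing), among them TARS1 (-0.78 ± 0.10), YARS1 (-0.56 ± 0.08) and IARS1 (-0.48 ± 0.06).

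On a list of ATF4 targets with the serine and one-carbon enzymes, 8 of 13 tested fell and 1 rose, with a median of -0.23 (4 and 0 without the pairing). The falls included 4 enzymes of serine, one-carbon and asparagine metabolism (PHGDH, PSAT1, ASNS and SHMT2), the transcription factors ATF4 and CEBPB, the tRNA exporter XPOT and DDIT4 above. The proline enzymes PYCR1 (0.12 ± 0.09) and ALDH18A1 (-0.02 ± 0.09) gave no call. PSAT1, the aminotransferase of serine synthesis, read 7.06, 6.73, 6.52, 6.87 and 6.44 with rapamycin, against 8.43, 7.73, 7.78, 8.0 and 7.55 with vehicle, 2.25-fold lower (-1.17 ± 0.08, adjusted p = 1.36e-09). PHGDH, the enzyme that opens the pathway, read 4.40, 4.29, 4.23, 4.43 and 4.27 with rapamycin, against 5.61, 5.84, 5.64, 5.37 and 5.63 with vehicle. Its rapamycin arrays all lay below its vehicle arrays, and it was 2.45-fold lower (-1.29 ± 0.11, adjusted p = 1.28e-08). Asparagine synthetase ASNS fell (-0.79 ± 0.09), while NUPR1, a stress-response cofactor, rose (0.37 ± 0.10).

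Cholesterol synthesis genes fell, 8 of 15 with none higher and a median of -0.45. ACAT2 and 1 other member passed only through the vehicle arrays, and with no filter 10 of 23 were lower, none higher, with a median of -0.24. ACAT2, which condenses the first acetyl units, read 4.66, 4.08, 4.17, 4.26 and 4.27 with rapamycin, against 6.15, 5.40, 5.49, 5.41 and 5.09 with vehicle, 2.33-fold lower (-1.22 ± 0.11, adjusted p = 4.64e-08). The sterol sensor partner INSIG1 (-0.85 ± 0.10), the isoprenoid isomerase IDI1 (-0.71 ± 0.10) and the sterol isomerase EBP (-0.69 ± 0.09) fell, whereas LSS (0.02) and MVK (-0.04) gave no call. SREBF1, the fatty acid arm's transcription factor, gave no call (0.18 ± 0.09, adjusted p = 0.0998), with vehicle array 1 low at 7.28 and the other vehicle arrays at 8.41 to 8.68. SCD, the desaturase, read 8.92, 9.18, 9.64, 9.54 and 9.25 with rapamycin, against 9.15, 9.15, 9.78, 9.80 and 9.44 with vehicle, a fall that barely passed (-0.16 ± 0.06, adjusted p = 0.0486). Of 14 fatty acid synthesis genes 5 fell and 1 rose, with ELOVL6 (-0.58 ± 0.12) and ACLY (-0.25 ± 0.05) among the falls. Without experiment 3 or without experiment 1, 3 of them were lower, without the pairing 1, and after quantile normalization 2. The SCD call was lost with any of 4 experiments left out and without the filter.

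Glycolytic enzymes fell by little, 10 of 18 lower and 1 higher, with a median of -0.22. TPI1, triose phosphate isomerase, read 10.03, 9.76, 9.91, 9.94 and 10.0 with rapamycin, against 10.46, 10.19, 10.20, 10.27 and 10.41 with vehicle. The groups were separate, but the fall was 1.3-fold (-0.38 ± 0.05, adjusted p = 9.74e-06). The aldolase ALDOC (-0.61 ± 0.10) and PGAM1 (-0.35 ± 0.06) fell, whereas PFKFB3, which makes the activator of phosphofructokinase, rose (0.80 ± 0.11). HK2, hexokinase 2, read 6.88, 7.03, 7.49, 7.57 and 7.16 with rapamycin, against 6.89, 6.96, 7.43, 7.49 and 7.17 with vehicle. Its pairs agreed closely and it gave no call (0.04 ± 0.08, adjusted p = 0.734). Other hypoxia targets were split 4 higher and 4 lower of 14 (4 and 2 without experiment 1), with the lipid droplet protein HILPDA higher (0.77 ± 0.06) and NDRG1 lower (-0.30 ± 0.07).

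Proteasome genes fell together. Of the 28 tested on that list, which holds the subunits and their activator NFE2L1, 23 were lower and none higher, with a median of -0.38, 22 without experiment 3 and 11 without the pairing. PSMD2, a scaffold of the regulatory particle, read 8.19, 8.09, 8.16, 8.17 and 8.01 with rapamycin, against 8.76, 8.87, 8.90, 8.59 and 8.78 with vehicle. The groups were separate (-0.66 ± 0.07, adjusted p = 7.41e-07). PSMD11 (-0.68 ± 0.10), PSMC6 (-0.67 ± 0.14) and the deubiquitinase subunit PSMD14 (-0.61 ± 0.09) fell, and NFE2L1 gave no call (0.12). Heat shock genes had 7 of 12 lower and none higher. HSP90AA1, the inducible HSP90, read 10.41, 10.05, 10.14, 10.42 and 9.65 with rapamycin, against 11.36, 10.48, 11.02, 11.09 and 10.78 with vehicle. Each pair fell (-0.81 ± 0.07, adjusted p = 2.75e-08), as did HSPH1 (-0.90 ± 0.10) and the HSP70-HSP90 adaptor STIP1 (-0.55 ± 0.09). Of NRF2 targets 6 of 9 fell, by 0.22 to 0.39, (1 without the pairing), and the ferritin chain FTL rose (0.44 ± 0.08).

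Lysosomal genes rose, 15 of 28 higher and 2 lower, with a median of 0.21 (11 and 1 without experiment 3, 7 and 1 without the pairing). CTSD, the protease cathepsin D, read 7.65, 7.69, 8.25, 7.88 and 7.86 with rapamycin, against 6.78, 7.41, 7.27, 7.51 and 7.35 with vehicle. The groups were separate by a narrow margin (0.60 ± 0.10, adjusted p = 6.24e-05). The membrane glycoprotein GPNMB (1.09 ± 0.11), the sialidase NEU1 (0.63 ± 0.11) and the peptidase TPP1 (0.50 ± 0.10) rose and the galactosidase GLA fell (-0.53 ± 0.08). Of 18 autophagy genes 9 rose and 2 fell (6 and 2 without experiment 3, 3 and 0 without the pairing), with ATG13 (0.53 ± 0.11) and the receptor NBR1 (0.43 ± 0.10) higher and ATG3 lower (-0.35 ± 0.09). Respiratory chain genes had 15 of 34 lower and none higher, with a median of only -0.13 (3 lower without the pairing, 9 without experiment 1, and 10 lower with 1 higher after quantile normalization), and mitochondrial ribosome and import genes 12 of 34 lower and 1 higher (6 and 1 without the pairing, 11 and 4 after quantile normalization), led by HSPE1 (-0.67 ± 0.08) and TOMM20 (0.50 ± 0.07).

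Most tested genes of the secretory luminal cell rose. Of 7 tested luminal secretory genes 5 were higher, with a median of 0.54 (3 without the pairing). With no filter 6 of 19 were higher and 1 lower (PLIN2, -0.69), with a median of 0.01. Over all genes that fit called 6.58% higher and 9.2% lower. SCGB2A2, mammaglobin, read 11.29, 11.51, 11.87, 11.53 and 11.17 with rapamycin, against 10.84, 11.15, 11.27, 10.92 and 10.50 with vehicle. Experiments differed, but each pair rose (0.54 ± 0.05, adjusted p = 2.74e-08). Its relatives SCGB1D2 (1.20 ± 0.11) and SCGB2A1 (0.72 ± 0.10) and the small mucin MUCL1 (0.66 ± 0.09) rose too. Of 15 luminal transcription factors and receptors 8 rose and 1 fell (2 and 0 without the pairing, 5 and 0 without experiment 1), with the epithelial factors ELF3 (0.58 ± 0.10) and SPDEF (0.40 ± 0.09) higher. Beside them, 3 of 15 basal markers passed the filter. SFN, the 14-3-3 sigma protein, read 6.44, 5.67, 5.84, 5.96 and 5.99 with rapamycin, against 7.0, 6.87, 7.43, 6.77 and 6.85 with vehicle, the highest value being that of vehicle array 3. SFN fell with and without that experiment (-1.0 ± 0.12, adjusted p = 1.05e-06, and -0.85 without it), as did keratin KRT15 (-0.50 ± 0.10). The matrix protein TGFBI rose by 0.46, and by 0.74 without experiment 3. The TGFBI call was lost without experiment 1, 2 or 4, with no filter, with no trend and without the pairing. The summed signal of the 15 basal markers was 212 to 233 with rapamycin and 277 to 287 with vehicle outside array 3, which gave 425. SFN was the brightest of the 15 in both groups (means 5.98 and 6.98), and 12 averaged under log2 5. The sum therefore follows SFN in the main and does not describe the basal markers as a class. EGFR, which also passed the filter, gave no call (0.18).

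**Figure D2:**
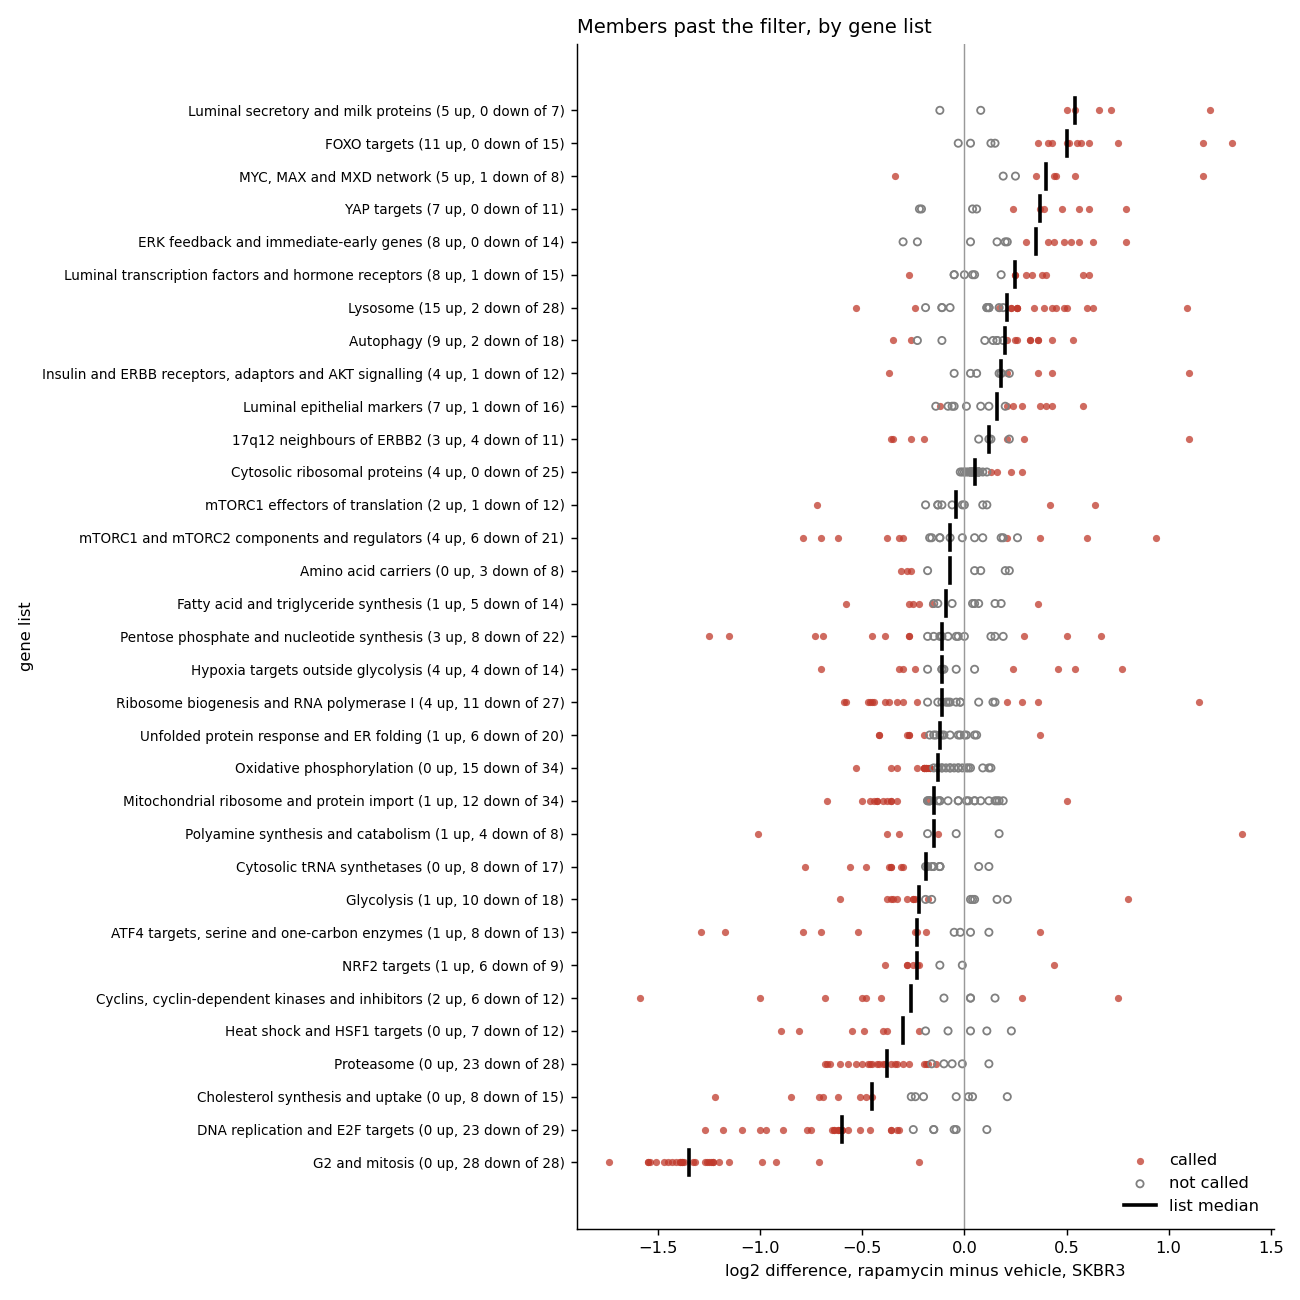
Log2 differences between rapamycin and vehicle (x axis) of the tested members of each gene list with 7 or more tested members, ordered by the list's median (black bar), with called genes filled and uncalled genes open. The mitosis list stands at the bottom with a median of -1.35 and the luminal secretory list at the top with 0.54.

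The same drug difference could be read on 10 other SKBR3 arrays, those with both drugs against those with doxorubicin alone. They share no array with the comparison above but carry the same experiment numbers, so they cannot be taken as separate experiments. There 2196 of 5520 genes were called (39.8%), 780 higher (14.1%) and 1416 lower (25.7%), a split that became 1157 higher and 988 lower after quantile normalization, and 339 higher and 703 lower without the pairing. Of the 2251 genes called above and tested there, 2206 had the same sign and 1657 were called the same way (73.6%, or 77.1% of the calls of the doxorubicin arrays that were also tested above), with 0 called the opposite way. All 93 genes of 2-fold or more that were tested there were called in the same direction. Across the 5399 genes in both fits Pearson's r was 0.90, a description over genes that share arrays and depend on each other.

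Leading genes moved the same way in the presence of doxorubicin. CCNO rose by 1.95, SAT1 by 1.11 and EMP1 by 1.44 when rapamycin was added to doxorubicin. Falls there were -1.85 for PBK, -0.96 for CCNB1, -1.67 for MKI67 and -1.07 for TYMS. Mitosis genes were lower in 27 of the 27 tested, with a median of -1.03, replication genes in 23 of 29 (-0.50), and proteasome genes in 20 of 28 (-0.39), while FOXO targets were higher in 9 of 15 (0.30). The difference between the 2 rapamycin effects was tested for 5977 genes, and limma called 0 of them (0%), with 335 at an unadjusted p under 0.05 (5.6%) and a smallest adjusted p of 0.0586. FBXO32 (0.64 with doxorubicin, 1.31 without) and HMMR (-1.04 and -1.74) were among the named genes farthest from equal, and neither difference passed.

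**Figure D3:**
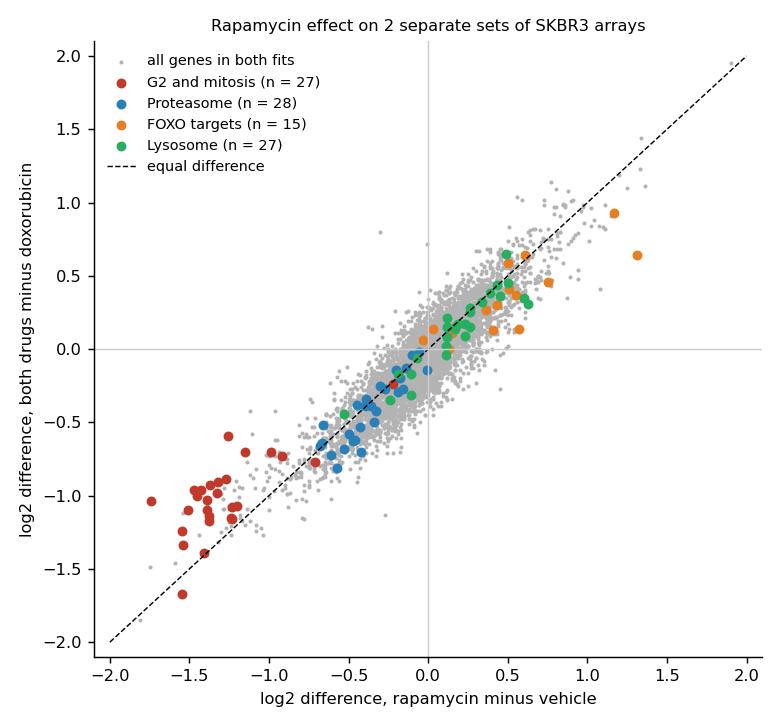
Log2 rapamycin difference without doxorubicin (x axis) and with it (y axis) for 5399 genes in SKBR3, with members of 4 lists coloured and a dashed line of equal difference. Mitosis genes lie at the lower left on both axes.

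Rapamycin moved SKBR3 differently from the other 2 lines. The rapamycin effect in SKBR3 minus that in HB4a was called for 1793 of 7207 genes (24.9%), 555 higher (7.7%) and 1238 lower (17.2%), and after quantile normalization 954 were higher and 986 lower. Against C5.2, 1961 genes (27.2%) were called, 1083 higher (15%) and 878 lower (12.2%). Of the 2315 genes called in SKBR3, 1063 differed from HB4a and 1019 from C5.2. Those genes were picked by their SKBR3 difference, which is also part of the line difference. A share above that of all genes is therefore built in. Without the pairing the counts over all genes were 349 against HB4a and 254 against C5.2. They also leaned on single experiments: without experiment 3 they were 1046 and 887, and without experiment 4 or 6 the C5.2 count was 1036 or 958. Lines were set against each other only in their drug differences, since a batch of arrays and a line cannot be told apart.

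The mitosis genes set SKBR3 apart most plainly. The difference was called lower in 27 of 28 members against each line, where the median drug difference was 0.20 in HB4a and -0.06 in C5.2. On the same footing 23 of the 28 members had a mean above log2 5 in HB4a vehicle cells and 24 in C5.2 vehicle cells. TOP2A averaged 6.02 ± 0.82 with rapamycin and 4.89 ± 0.57 with vehicle in HB4a and 6.65 ± 0.45 with rapamycin and 6.22 ± 0.33 with vehicle in C5.2, and its drug difference was 1.14 in HB4a and 0.43 in C5.2, opposite to SKBR3. CDK1 averaged 7.07 ± 0.40 with rapamycin and 6.20 ± 0.53 with vehicle in HB4a and 7.62 ± 0.53 with rapamycin and 7.27 ± 0.31 with vehicle in C5.2, again higher with rapamycin. Its effect in SKBR3 was lower than in HB4a by 2.41 and than in C5.2 by 1.89 log2 units (-2.41 ± 0.17 and -1.89 ± 0.17). Replication genes differed the same way in 16 of 29 members against HB4a and 10 of 29 against C5.2. Proteasome genes had medians of -0.16 in HB4a and -0.19 in C5.2, and 7 and 8 of 28 members fell more in SKBR3.

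**Figure D4:**
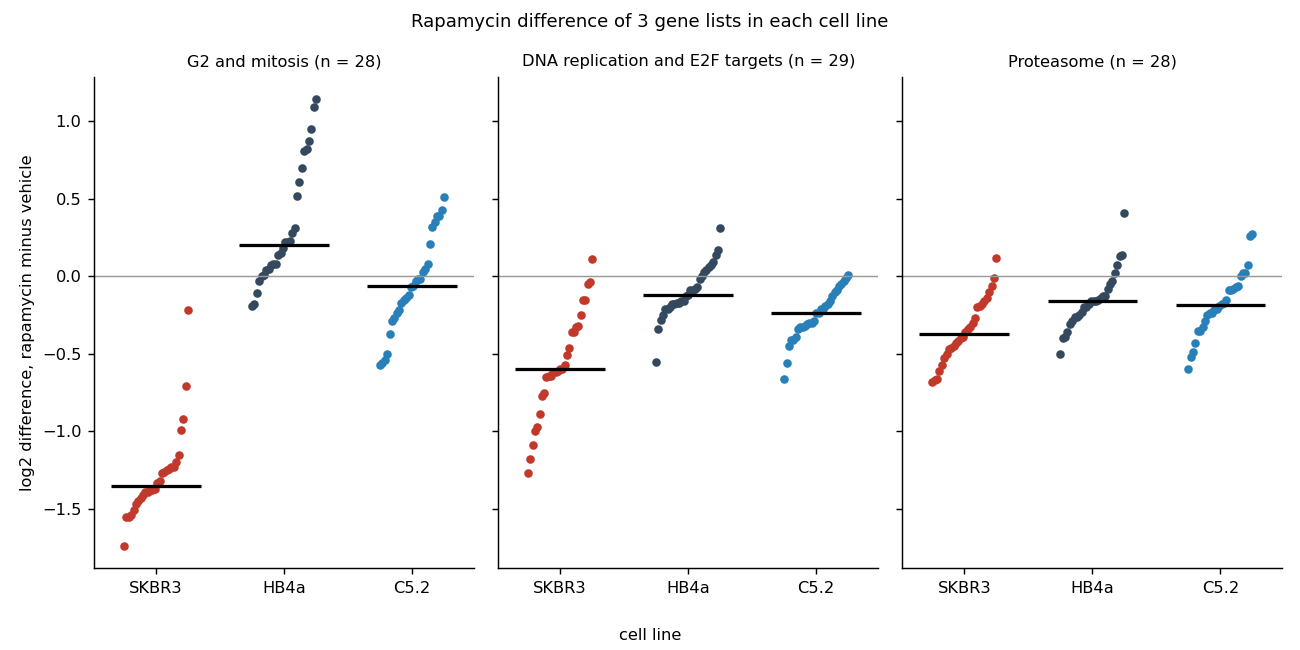
Log2 differences between rapamycin and vehicle in SKBR3, HB4a and C5.2 (x axis) for the tested members of 3 lists, each point a gene and each bar the median. Mitosis medians are -1.35 in SKBR3, 0.20 in HB4a and -0.06 in C5.2.

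Some genes of glycolysis and lipid metabolism differed between lines. Cholesterol synthesis genes had a lower effect in SKBR3 in 5 of 15 and a higher one in 1 against HB4a, and 4 and 1 against C5.2. Fatty acid synthesis genes were higher in 3 of 14 and lower in 1 against HB4a, and 2 and 0 against C5.2. Over all genes 7.7% were higher and 17.2% lower against HB4a, and 15% and 12.2% against C5.2. The fatty acid counts against C5.2 do not exceed these shares. HK2, not called in SKBR3, averaged 5.43 ± 0.14 with rapamycin and 6.46 ± 0.18 with vehicle in HB4a, and its effect in SKBR3 lay above that in HB4a by 1.07 ± 0.13. SCD averaged 6.43 ± 0.33 with rapamycin and 7.48 ± 0.30 with vehicle in HB4a and 6.02 ± 0.27 with rapamycin and 6.89 ± 0.23 with vehicle in C5.2, so its small fall in SKBR3 differed from both (0.89 ± 0.13 and 0.72 ± 0.13). HILPDA rose in SKBR3 but averaged 7.03 ± 0.21 with rapamycin and 7.66 ± 0.14 with vehicle in HB4a and 6.20 ± 0.19 with rapamycin and 6.71 ± 0.19 with vehicle in C5.2, lower with rapamycin in both. AQP3, a glycerol channel, read 10.48, 10.66, 10.94, 10.76 and 10.65 with rapamycin and 10.13, 10.61, 10.63, 10.55 and 10.48 with vehicle in SKBR3, a small rise (0.22 ± 0.05), against 3.51 ± 0.67 with rapamycin and 4.89 ± 0.49 with vehicle in HB4a, where it is dim. Glycolysis genes were called higher in SKBR3 relative to HB4a in 5 of 18 and relative to C5.2 in 7 of 18, with 0 and 1 lower.

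Among the rises, EMP1 averaged 9.22 ± 0.29 with rapamycin and 8.90 ± 0.22 with vehicle in HB4a and 9.24 ± 0.44 with rapamycin and 9.21 ± 0.25 with vehicle in C5.2, well expressed in both with small differences. SAT1 rose more in SKBR3 than in HB4a (1.08 ± 0.11) or C5.2 (0.65 ± 0.11). CCNO lay under log2 5 in both other lines, at 4.15 ± 0.33 with rapamycin and 4.36 ± 0.23 with vehicle in HB4a, and SCGB1D2 was near 0 in both, so for these 2 genes the difference between lines has little expression on the other side. FOXO targets had medians of 0.59 in HB4a and 0.42 in C5.2, and the difference from SKBR3 was called higher in SKBR3 for 5 of 15 and lower for 4 against HB4a, and for 4 and 2 against C5.2.

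**Figure D5:**
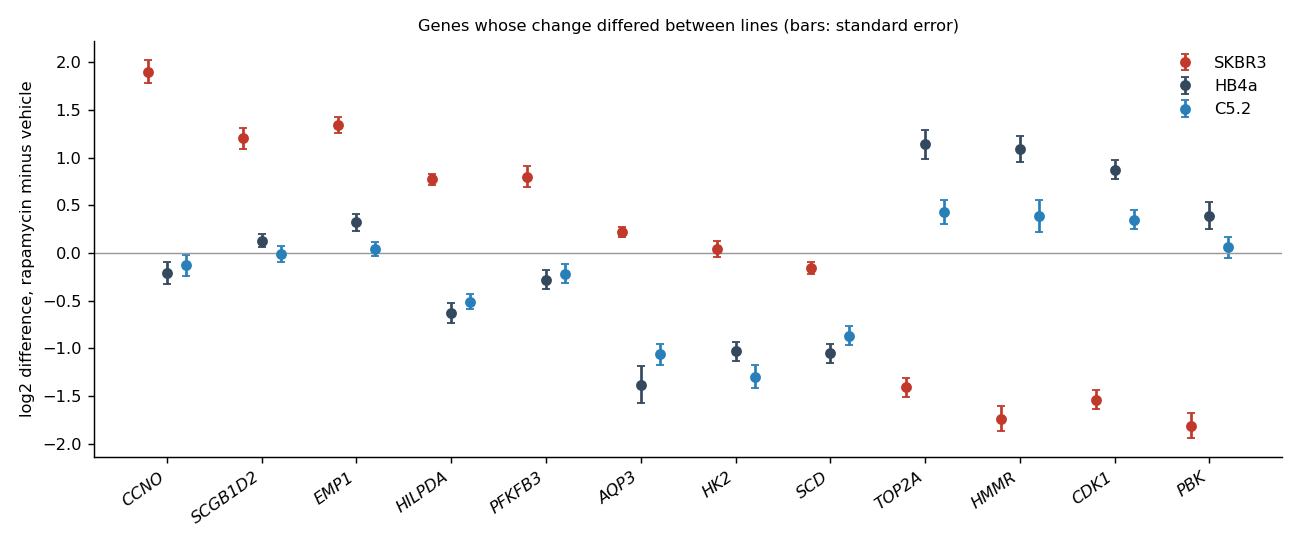
Log2 differences between rapamycin and vehicle with standard errors (n = 5 pairs per line) of 12 genes in SKBR3, HB4a and C5.2. PBK, CDK1, HMMR and TOP2A lie below 0 in SKBR3 and above 0 in HB4a, and HILPDA and AQP3 lie the other way round.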

How the data were processed

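RNA of SKBR3 cells was measured on Affymetrix U133 Plus arrays. The deposited expression matrix holds log2 values made by the authors with RMA, per the submitters' processing notes, which give no version. Base 2 was taken from their range, -0.6 to 13.08 over the 60 arrays, with array medians of 1.41 to 1.71, and the sources used here do not give whether the arrays were normalized together. Of 54675 probe sets, 41091 carry 1 gene symbol and were used, while 1801 with several symbols, 11721 unnamed here and 62 array controls were left out. For each of 19775 genes the probe set with the highest mean over the 60 arrays was taken. Where a called gene had several probe sets past the filter (675 genes), 28 held probe sets of opposite direction.

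The vehicle group is the one whose source names give DMSO, since the label used for it also stands for the drug pair in the treatment text, and doses were read as nM. Arrays of equal experiment number were paired: deviations from group means correlated at 0.82, 0.32, 0.30, 0.68 and 0.82 for experiments 1, 2, 3, 4 and 6, each array best with its own number. Fits used limma 3.58.1 in R 4.3.3 (lmFit and eBayes with trend, 2-sided tests, with the Benjamini-Hochberg procedure run across the whole filtered set and a threshold of 0.05), on genes above log2 5 on at least 5 arrays of the fit. The 5 comparisons were rapamycin against vehicle, both drugs against doxorubicin, the difference between those effects, and the rapamycin effect in SKBR3 minus that in HB4a or in C5.2. The labels call the experiments independent, and p-values measure the spread between them.

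Named genes were the 15 largest rises and falls with all 5 pairs in 1 direction, up to 4 called members per direction of each list, a fixed set of pathway genes, and for differences between lines the 6 largest in each direction. Uncalled members given as contrasts, CDC25B, MCM5, PCNA and the members listed to describe the ATF4 list were chosen after their values were seen. The 42 gene lists and the members were chosen with earlier results of these data known. Of their 1013 genes 916 had a value and 580 passed the filter.

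Promoter windows came from RefSeq (GRCh38.p14), the first listed start per symbol, and 31 of 38, 35 of 38 and 20 of 25 members of the mitosis, replication and FOXO lists matched. Alternatives were no pairing, no filter or a filter at log2 7, quantile normalization, array centring, other probe set rules, no trend, array weights, all 20 SKBR3 arrays and each experiment left out. List counts under these settings were added after the data were seen. The fit was tested on simulated data. Scripts and plots used Python 3.11.15, pandas 2.3.3, numpy 2.4.6, matplotlib 3.10.9 and the R package data.table, version 1.17.8.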

Additional observations from a re-analysis of the deposited data

Results flagged for a closer look

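An array stood apart from the other 4 of its group in 31 of the 318 gene and group sets examined, by Dixon's ratio of gap to range, and chance gives about 1 in 20. In 13 of them vehicle array 1 was low: CDC25B at 7.74, CEBPB at 9.33, DUSP4 at 6.86, EGFR at 5.08, ERBB2 at 10.87, GRB7 at 5.73, LSS at 5.18, MNT at 4.50, RPL14 at 11.09, SPDEF at 6.91, SREBF1 at 7.28, TAPBP at 4.33 and TPP1 at 5.26. On the same array EPB41L4A-AS1 was high at 6.96. Rapamycin array 1 was low for DUSP4 (7.59) and MNT (5.40) and high for ODC1 (8.95). Rapamycin array 2 was high for AMOTL2 (8.71) and EGR1 (8.80), and low for BIRC5 (6.30), EBP (6.55), EIF4B (8.91) and TYMS (7.05). Vehicle array 2 was low for TOP2A (7.59). Vehicle array 4 was high for ACLY (10.50), RPL3 (11.66), STIP1 (7.29) and TOMM20 (8.88), rapamycin array 4 was high for MED1 (8.85), and rapamycin array 6 was low for MXI1 (5.90). Vehicle array 3, which carries foreign RNA, was high for FTL (10.03).

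The rapamycin effect differed between lines, tested as a difference of differences with limma. Relative to HB4a, SKBR3 showed a lower effect for HMMR (-2.84), ASPM (-2.59), TOP2A (-2.55), CDK1 (-2.41), ANLN (-2.36), CENPF (-2.21) and PBK (-2.20). It showed a higher one for CCNO (2.11), AQP3 (1.60), HILPDA (1.41), PFKFB3 (1.08), SAT1 (1.08), HK2 (1.07), SCGB1D2 (1.07), EMP1 (1.03), SCD (0.89), the kinase PRKCH (0.66) and SREBF1 (0.58). Relative to C5.2, the lower effects were HMMR (-2.13), CDK1 (-1.89), PBK (-1.87), ASPM (-1.84), TOP2A (-1.84), CENPF (-1.78) and ANLN (-1.58). The higher ones were CCNO (2.03), HK2 (1.34), EMP1 (1.31), AQP3 (1.28), HILPDA (1.28), SCGB1D2 (1.22), PRKCH (1.18), PFKFB3 (1.02), SREBF1 (0.73), SCD (0.72) and SAT1 (0.65). The adjusted p of these 36 differences ranged from 1.16e-08 to 0.00636. AQP3, ASPM, CCNO, CENPF, HMMR, SCGB1D2 and SREBF1 averaged under log2 5 in the vehicle cells of both HB4a and C5.2, so part of these differences rests on dim values there.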

How the results depend on the processing

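Rapamycin against vehicle called between 1782 and 2686 genes with 1 experiment left out, and 789 without the replicate pairing. Other counts past 1.5 times were 968 with a filter at log2 7 (2005 genes tested), 1391 with the mean of all probe sets (3158 tested), 1095 with all 20 SKBR3 arrays and no pairing, and 579 with vehicle array 3 alone left out and no pairing. For both drugs against doxorubicin the count was 1042 without the pairing, 3333 with no filter and 859 at log2 7, and 1580 to 2222 with an experiment left out. The difference between those effects gave 3 genes after quantile normalization and 0 under each other setting. Against HB4a the count was 349 without the pairing, 724 at log2 7 and 1046 to 1924 with an experiment left out, and against C5.2 it was 254, 841 and 887 to 2360. Of the 144 called genes in the text, 91 kept their call under each of the 17 settings whose fit held them, 35 lost it only where the pairing was dropped, and 0 changed sign. A gene that did not enter a fit, such as HMMR at log2 7, was not tested in that setting. Calls were lost with at least 1 experiment left out for 13 genes: ATF4, CCNG1, CDC25B, CEBPB, ISG15, MDM2, MED1, NPM1, PGAP3, RPL18, SCD, SHMT2 and TGFBI. Genes mostly below log2 5 entered only the fits with no filter.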

Other observations

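Over all genes tested 17.6% were called higher and 23.9% lower in the rapamycin comparison, against which the other gene lists are given. Of 20 tested genes of the unfolded protein response and ER folding 6 fell and 1 rose (2 and 0 without the pairing, 3 and 1 without experiment 1). The ER folding factors CRELD2 (-0.42 ± 0.08) and SDF2L1 (-0.42 ± 0.09) and the chaperone HSPA5 (-0.28 ± 0.06) were lower. The co-chaperone DNAJB9 was higher (0.37 ± 0.10). Of 4 genes of HLA and peptide loading that passed the filter 3 rose, TAPBP (0.61 ± 0.11), the immunoproteasome subunit PSMB10 (0.42 ± 0.10) and HLA-E (0.37 ± 0.08), and 1 of them without the pairing. Of 6 interferon genes 2 rose, SP110 among them (0.61 ± 0.10), and ISG15 fell (-0.35 ± 0.10), with 1 higher and 0 lower without the pairing. Of 8 amino acid carriers 3 were lower, but 1 without experiment 3, 1 after quantile normalization and 0 without the pairing. Of 16 luminal markers 7 were higher and 1 lower (3 and 0 without the pairing), and of 8 MYC network genes 5 were higher and 1 lower (4 and 0 without it). Translation effectors had 2 higher and 1 lower of 12 (2 and 0 without it) and mesenchymal markers 2 higher of 4 (1 without it). The histones, with 1 higher and 1 lower of 6, and the NF-kB genes, with 1 higher of 3, had no call without the pairing.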
